A study of Homo sapiens with 4 samples.

Results

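CXCL1, CXCL2, CXCL3, CXCL5, CXCL6 and CXCL8 are CXC chemokines that bind the receptors CXCR1 and CXCR2. The 6 genes were taken by name, and their 11 probe sets, each annotated to 1 gene, were read on all 4 arrays out of 54675 probe sets for 19775 named genes. CXCL8 (IL-8) had 2 probe sets, CXCL2 and CXCL5 had 3 each, and CXCL1, CXCL3 and CXCL6 had 1 each. The cells were sublines of THP-1, a human monoblastoid leukemia cell line, made to express Siglec-14 or Siglec-5, which were used as models of monocytes from people who carry SIGLEC14 or lack it. RNA came from Siglec-14,NTHi[+] and Siglec-14,NTHi[-], the Siglec-14/THP-1 cells with and without heat-killed nontypeable Haemophilus influenzae (NTHi) strain 2019, and from Siglec-5,NTHi[+] and Siglec-5,NTHi[-], the Siglec-5/THP-1 cells treated alike. All cells spent 6 h in serum-free macrophage medium, the stimulated ones at 100 bacteria per cell, and the sources used here do not say whether a subline is 1 clone. Each condition has 1 Affymetrix U133 Plus 2.0 array and no replicate, so array and condition cannot be told apart.

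These chemokines carry a glutamate-leucine-arginine motif before their first cysteine pair, which marks the ligands that attract neutrophils. CXCR2 binds all of them and CXCR1 mainly CXCL6 and CXCL8. Monocytes and epithelial cells make them soon after contact with bacteria, mostly through NF-κB, and they bind to glycosaminoglycans on the vessel wall, where they guide neutrophils out of the blood. The genes lie together on chromosome 4 in the order CXCL8, CXCL6, CXCL1, CXCL5, CXCL3 and CXCL2, with the platelet chemokine genes PF4V1, PF4 and PPBP among them.

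The 150 bases before the annotated start site are printed here because the letters GGAATTTCC, which fit the NF-κB consensus, stood at nearly the same distance from the start in all 6 genes. The sequences are from RefSeq (GRCh38.p14) and run 5′ to 3′ along each gene, with capitals for these letters. All 6 genes were matched in the RefSeq table, and the letters were looked up after the sequences had been seen.
CXCL8, chr4:73740419-73740568, plus strand: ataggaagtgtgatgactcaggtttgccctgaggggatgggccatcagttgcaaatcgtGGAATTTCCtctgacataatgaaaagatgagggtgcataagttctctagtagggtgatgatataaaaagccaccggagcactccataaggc
CXCL1, chr4:73869243-73869392, plus strand: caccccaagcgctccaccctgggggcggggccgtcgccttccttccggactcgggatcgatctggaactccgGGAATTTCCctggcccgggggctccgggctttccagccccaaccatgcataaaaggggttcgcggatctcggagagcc
CXCL2, chr4:74099196-74099345, minus strand: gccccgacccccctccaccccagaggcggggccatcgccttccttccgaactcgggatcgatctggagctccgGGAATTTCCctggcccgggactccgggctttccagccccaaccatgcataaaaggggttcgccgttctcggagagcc
CXCL3, chr4:74038690-74038839, minus strand: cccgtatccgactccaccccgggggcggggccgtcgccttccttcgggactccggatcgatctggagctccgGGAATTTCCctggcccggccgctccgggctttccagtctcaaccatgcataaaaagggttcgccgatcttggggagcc
CXCL6, chr4:73836528-73836677, plus strand: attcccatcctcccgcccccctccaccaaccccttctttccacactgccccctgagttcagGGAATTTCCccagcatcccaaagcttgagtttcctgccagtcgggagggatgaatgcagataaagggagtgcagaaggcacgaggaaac
CXCL5, chr4:73998678-73998827, minus strand: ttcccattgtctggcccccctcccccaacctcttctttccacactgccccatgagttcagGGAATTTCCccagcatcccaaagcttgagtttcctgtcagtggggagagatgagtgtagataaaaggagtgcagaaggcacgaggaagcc

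The letters began 78 bases before the start of CXCL1 and CXCL3, 77 before that of CXCL2, 89 before that of CXCL6, 90 before that of CXCL5 and 91 before that of CXCL8. Searched on both strands in the 250 bases before each start, they were in 6 of 6 genes and in 0.413% of 35116 RefSeq promoters. The letters TGANTCA, an AP-1 motif, were found in 1 of 6, CXCL8, and in 6.57% of all promoters. The letters ATAAAA of a TATA-like box were in 5 of 6 (14.8% of all), all but CXCL6, and the GC box letters GGGCGG in 3 of 6 (42.6% of all). In the printed 150 bases, CXCL1 and CXCL2 were 88.7% identical, CXCL1 and CXCL3 88.1%, and CXCL5 and CXCL6 89.4%. CXCL8 was 43.6% to 47.5% identical to the others. CXCL1, CXCL2 and CXCL3 thus form one group of like promoters, CXCL5 and CXCL6 another, and CXCL8 stands by itself. A match of letters is a description and not a binding site.

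**Figure D1:**
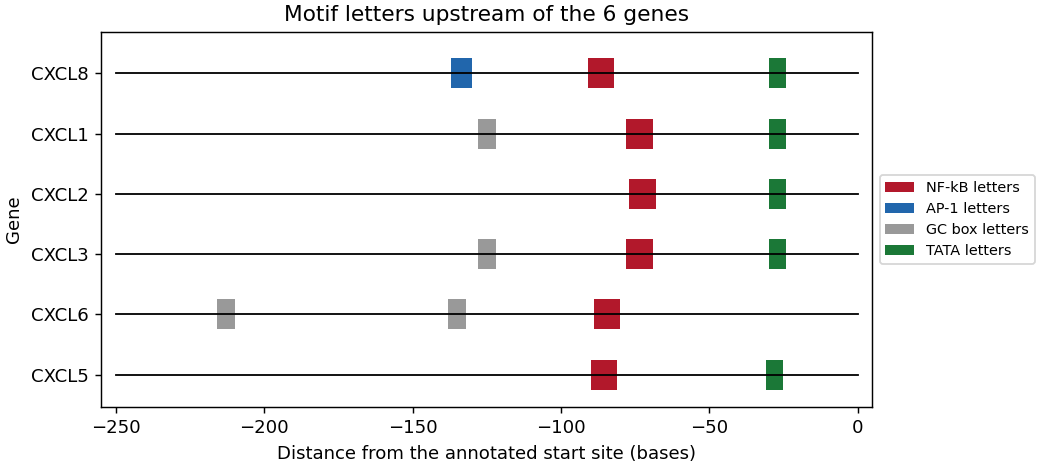
Positions of motif letters in the 250 bases before the annotated start site of each gene (x axis, bases from the start site; 1 row per gene, width of a box to scale). The NF-κB letters lie between 91 and 69 bases before the start in all 6 genes.

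CXCL1, CXCL2 and CXCL8 rose with NTHi in the fit over both sublines, and these 3 and CXCL6 were higher in Siglec-14/THP-1 than in Siglec-5/THP-1. CXCL3 passed neither test, although its signals ran the same way. The array signal of a gene is a brightness on a linear scale, and signals of different probe sets are not compared with each other. A signal was taken as measured from 16.02 upward, the median of all signals, and this floor stands in for any lower signal in a fold. CXCL5 lay below it on all 4 arrays. In bulk RNA, fewer cells that express a gene and less RNA per cell cannot be told apart.

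CXCL8, a potent neutrophil attractant, had a signal of 4883 in Siglec-14,NTHi[+] and 1491 in Siglec-14,NTHi[-], against 1414 in Siglec-5,NTHi[+] and 324.8 in Siglec-5,NTHi[-]. The fold with NTHi was 3.27 in Siglec-14/THP-1 and 4.35 in Siglec-5/THP-1. Siglec-14/THP-1 exceeded Siglec-5/THP-1 by 3.45-fold with NTHi and 4.59-fold without. Its other probe set read 1917 and 545 in stimulated and nonstimulated Siglec-14/THP-1, and 520 and 105.9 in the Siglec-5/THP-1 pair. Both probe sets gave the same order of arrays, with nonstimulated Siglec-14/THP-1 next to stimulated Siglec-5/THP-1. Those neighbours were 0.08 apart on the log2 scale on the brighter probe set, against a standard deviation (SD) of 0.32 for the same ratio over 199 probe sets of like signal, so that their order is not settled.

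CXCL1, or GRO-α, had a signal of 325 in Siglec-14,NTHi[+], 80.8 in Siglec-14,NTHi[-], 104 in Siglec-5,NTHi[+] and 33.9 in Siglec-5,NTHi[-]. With NTHi it was 4.03-fold higher in Siglec-14/THP-1 and 3.07-fold higher in Siglec-5/THP-1. CXCL2, or GRO-β, had 132 and 26.4 in Siglec-14/THP-1 with and without NTHi, and 38.6 and 17.9 in Siglec-5/THP-1. Its folds with NTHi were 4.98 and 2.16 in the same order of lines. In both genes stimulated Siglec-5/THP-1 read above nonstimulated Siglec-14/THP-1, by 0.37 and 0.55 on the log2 scale, within the SDs of 0.45 and 0.61 over 199 probe sets of like signal. The remaining 2 probe sets of CXCL2 lay below the floor on all arrays, with 9.35 as their highest signal.

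CXCL3, or GRO-γ, was dimmer, with 44.1 in Siglec-14,NTHi[+] and 22.1 in Siglec-14,NTHi[-], against 21.6 in Siglec-5,NTHi[+] and 13.1 in Siglec-5,NTHi[-], which is below the floor. Its ratio with NTHi was 2.00 in Siglec-14/THP-1 and at least 1.35 in Siglec-5/THP-1. CXCL6, or GCP-2, which also binds CXCR1, had 150.4 and 95.2 in stimulated and nonstimulated Siglec-14/THP-1, and 60.5 and 43.6 in the Siglec-5/THP-1 pair. Its ratio with NTHi was 1.58 and 1.39 in these lines, while the ratio of Siglec-14/THP-1 to Siglec-5/THP-1 was 2.49 with NTHi and 2.18 without. CXCL6 was the measured member in which nonstimulated Siglec-14/THP-1 read above stimulated Siglec-5/THP-1 by more than the spread of like probe sets, 0.65 against an SD of 0.48 on the log2 scale.

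CXCL5, or ENA-78, which is made mostly by epithelial cells and platelets, had signals of at most 5.78 on its 3 probe sets. A signal under the floor, which is a median and not a detection call, is taken as not measured. It does not show that the gene was silent, and no fold is given for it. CXCL1, CXCL2 and CXCL3 have closely related coding sequences. The names of the CXCL2 and brighter CXCL8 probe sets end in _x_at and so carry the manufacturer's mark for probes that can match other transcripts, so the split of signal among the 3 GRO genes is uncertain.

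**Figure D2:**
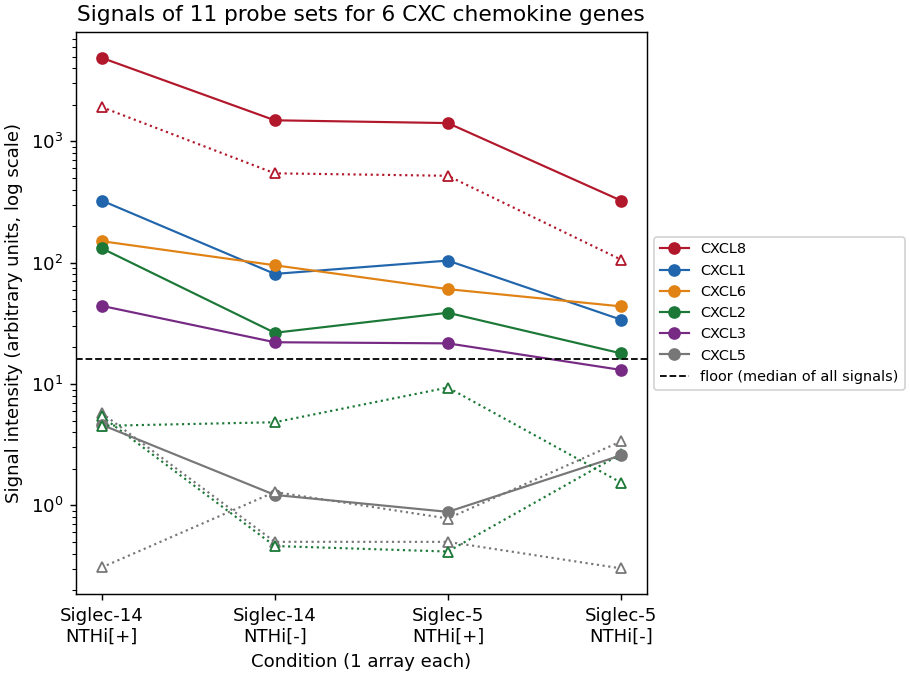
Signal intensity (y axis, log scale) of the 11 probe sets on the 4 arrays (x axis, 1 array per condition). Filled circles are the probe set with the highest mean signal of each gene, open triangles the others, lines join the arrays of 1 probe set and the dashed line is the floor of 16.02. The 5 measured genes are highest in Siglec-14,NTHi[+] and lowest in Siglec-5,NTHi[-].

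By the 3-fold size that the study used, 3 of the 5 measured members (CXCL1, CXCL2 and CXCL8) were higher with NTHi in Siglec-14/THP-1, where 0.189% of 13210 measured genes were. In Siglec-5/THP-1 they were 2, CXCL1 and CXCL8, against 0.261% of 13014 genes. Between the stimulated lines CXCL1, CXCL2 and CXCL8 were at least 3-fold higher in Siglec-14/THP-1 (1.63% of 13099 genes), and between the nonstimulated lines CXCL8 alone was (1.21% of 13284 genes). The study also asked for unambiguous detection, which the floor does not reproduce. Its list of induced genes, drawn from these same arrays, holds CXCL1 and CXCL8 (as IL8) but not CXCL2. CXCL1 fell short of 3-fold between the stimulated lines after scaling to equal medians or quantile normalization, and CXCL8 fell short of it with NTHi in Siglec-14/THP-1 after quantile normalization. With the floor at the 75th percentile CXCL2 fell short with NTHi in Siglec-14/THP-1 and between the stimulated lines. The median log2 ratio of the measured members was 1.71 with NTHi in Siglec-14/THP-1 and 1.11 in Siglec-5/THP-1, beside medians of 0.08 and -0.11 over all measured genes. It was 1.64 between the stimulated and 1.13 between the nonstimulated lines, beside 0.06 and -0.12 over all genes.

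**Figure D3:**
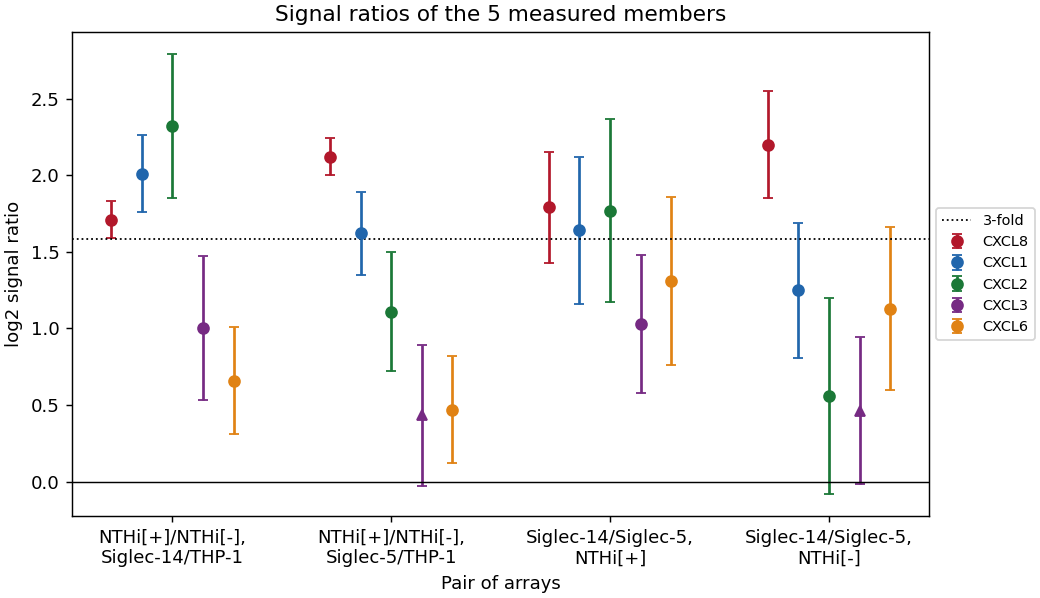
The log2 signal ratio (y axis) of the 5 measured members in the 4 pairs of arrays (x axis). Bars are the SD of the same ratio over 199 or 200 probe sets of like signal, which holds real differences between the arrays as well, triangles are lower bounds computed against the floor and the dotted line marks 3-fold. All points lie above 0, and the bars of CXCL2 and CXCL3 between the nonstimulated lines and of CXCL3 with NTHi in Siglec-5/THP-1 reach below it.

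All 4 arrays entered 1 additive limma model of NTHi and cell line, which tests a response shared by both lines and leaves 1 residual degree of freedom. With Benjamini-Hochberg adjustment over 31981 probe sets, 3 of 5 members rose with NTHi, against 0.99% of 13935 genes tested. The NTHi term on the log2 scale was 1.92 for CXCL8 (standard error 0.15, adjusted p = 1.48e-32) and 1.81 for CXCL1 (standard error 0.20, adjusted p = 1.85e-16). It was 1.71 for CXCL2 (standard error 0.30, adjusted p = 4.3e-06). CXCL3 had a term of 0.86 (limma adjusted p = 0.779) and CXCL6 one of 0.57 (limma adjusted p = 0.377). CXCL8, CXCL1 and CXCL2 are thus the members called for NTHi.

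In the same fit 4 of 5 members were higher in Siglec-14/THP-1, against 6.24% of genes. The line term was 1.99 for CXCL8 (standard error 0.15, limma adjusted p = 4.79e-36) and 1.45 for CXCL1 (standard error 0.20, limma adjusted p = 5.82e-11). It was 1.16 for CXCL2 (standard error 0.30, limma adjusted p = 0.00237) and 1.22 for CXCL6 (standard error 0.22, limma adjusted p = 1.09e-06). CXCL3 had 0.89 (limma adjusted p = 0.237). CXCL6 was therefore called between the lines but not for NTHi. The median term of the 5 measured members was 1.71 for NTHi and 1.22 for the line, beside -0.02 and -0.03 over all genes. These p-values rest on the trend of variance with signal, and without it limma called 0 members in either comparison, with 4 members at an unadjusted p under 0.05 in each. With cell line left out of the fit, limma called 0 members for NTHi, with 3 at an unadjusted p under 0.05. Over all genes, 869 were higher and 690 lower in Siglec-14/THP-1 as deposited, and 1032 and 2203 after scaling to equal medians.

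On these single arrays the log2 response was larger in Siglec-14/THP-1 for CXCL1, CXCL2 and CXCL6, and in Siglec-5/THP-1 for CXCL8. The log2 response of Siglec-14/THP-1 minus that of Siglec-5/THP-1 was 1.2 for CXCL2, where the SD over 199 probe sets of like signal was 0.59, and 0.39 for CXCL1 (SD 0.35). It was -0.41 for CXCL8 (SD 0.14) and -0.48 on the other CXCL8 probe set (SD 0.20). CXCL6 had 0.19, within its SD of 0.43. CXCL2 therefore had the larger fold in Siglec-14/THP-1 and CXCL8 in Siglec-5/THP-1. The nonstimulated signals of CXCL2, 26.4 in Siglec-14/THP-1 and 17.9 in Siglec-5/THP-1, were near the floor of 16.02, which limits its folds. These differences between the lines were not tested, since each rests on 4 single arrays. They were also not centred on the other genes. Over all measured genes the median log2 ratio with NTHi was 0.08 in Siglec-14/THP-1 and -0.11 in Siglec-5/THP-1, so a small positive difference is not particular to a member. In signal units the difference with NTHi was larger in Siglec-14/THP-1 for each measured member. It was 3392 against 1089 for CXCL8, 244.5 against 70.2 for CXCL1, 105 against 20.8 for CXCL2 and 55.2 against 16.9 for CXCL6.

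Among 11030 other genes that reached the floor on every array, the pattern closest to CXCL8 was that of ICAM1, the adhesion receptor for leukocyte integrins. Likeness is the root mean square difference of log2 signals over the 4 arrays after each gene was centred on its own mean, 0.14 for ICAM1. Next came CCL2, a monocyte chemokine, at 0.15, and IL1B, the cytokine IL-1β, at 0.19. CXCL1 was sixth, at 0.34. The gene closest to CXCL1 was CXCL2 (0.25), followed by the phosphodiesterase PDE4B and the glucose transporter SLC2A6, both at 0.27. CXCL2 in turn was closest to CXCL1, then to IL23A, a subunit of IL-23 (0.34), and NCF1, a subunit of the phagocyte NADPH oxidase with near-identical pseudogenes (0.41). CXCL2 was read on a probe set marked for possible matches to other transcripts, and the part of this in its likeness to CXCL1 was not tested. CXCL6 was closest to PILRA, a paired immunoglobulin-like receptor (0.05), DDIT4, an inhibitor of mTOR signalling (0.06), and the cochaperone gene DNAJB2 (0.07). The other 3 members came far down its ranking of 11030 genes. CXCL2 was at place 3078 (0.63), CXCL1 at 3289 (0.64) and CXCL8 at 8195 (0.79). CXCL3 was left out of this ranking because 1 of its signals is below the floor.

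The receptors showed no like rise. CXCR2, the receptor of all 6 ligands, had a signal of 99.8 in Siglec-14,NTHi[+] and 70.8 in Siglec-14,NTHi[-], against 80.4 in Siglec-5,NTHi[+] and 114 in Siglec-5,NTHi[-]. CXCR1 was below the floor on all arrays, with 9.16 as its highest signal. ACKR1, an atypical receptor that takes up these chemokines, was measured in Siglec-14,NTHi[+] alone, at 25.04. Of these 2 measured receptor genes limma called 0 for either term, with 0 at an unadjusted p under 0.05. Over all genes, 0.99% were called as higher with NTHi and 6.24% as higher in Siglec-14/THP-1.

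Among 11 other CXC chemokines, 4 were measured. In the limma fit 1 of them (CXCL10) rose with NTHi, against 0.99% of all genes. As higher in Siglec-14/THP-1, 2 passed (CXCL10 and CXCL11), against 6.24% of all genes. CXCL10, a CXCR3 ligand that attracts T cells, had 2035 and 807 in Siglec-14/THP-1 with and without NTHi, and 3220 and 63.8 in Siglec-5/THP-1. Its signal in stimulated Siglec-14/THP-1 was below that in stimulated Siglec-5/THP-1, the reverse of the measured members, and this difference was not tested. CXCL11, another CXCR3 ligand, had 55.0 and 24.5 in Siglec-14/THP-1, and was below the floor in Siglec-5/THP-1. It entered the fit through the Siglec-14/THP-1 arrays only, and its ratio between the lines was at least 3.43 with NTHi and at least 1.53 without. On chromosome 4, PF4V1, PF4 and PPBP, which lie between the members, were below the floor on all 4 arrays, as were AFM and RASSF6 beside CXCL8. MTHFD2L, a folate enzyme gene beside CXCL2, had 333 in Siglec-14,NTHi[+], 293.8 in Siglec-14,NTHi[-], 325 in Siglec-5,NTHi[+] and 398 in Siglec-5,NTHi[-].

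Of 18 measured genes for NF-κB, AP-1 and C/EBP factors, ATF3 and inhibitors of NF-κB, 8 were called as higher with NTHi (0.99% of all genes) and 0 as lower, with 0 lower at an unadjusted p under 0.05. They were NFKB1, NFKB2, REL, RELB, NFKBIA, NFKBIE, NFKBIZ and TNFAIP3. Of them NFKB2 alone had a signal below the floor, 9.98 in Siglec-5,NTHi[-], and its call rests in part on that signal. NFKBIZ, a nuclear IκB protein, had the largest fold of them in Siglec-14/THP-1, 5.23, and 4.68 in Siglec-5/THP-1. RELB, an NF-κB subunit, was 1.77-fold higher with NTHi in Siglec-14/THP-1 and 3.52-fold in Siglec-5/THP-1. Between the lines 10 of the 18 were called as higher in Siglec-14/THP-1 (6.24% of all genes), among them the AP-1 genes JUN, FOS and JUNB and the stress factor ATF3, none of which was called for NTHi. FOS had 67.1 and 41.1 in Siglec-14/THP-1 with and without NTHi, and 25.3 in Siglec-5,NTHi[+], with Siglec-5,NTHi[-] below the floor, and an NTHi term of 0.87 on the log2 scale (standard error 0.35, limma adjusted p = 0.458). ATF3 had 209 and 197.5 in Siglec-14/THP-1 with and without NTHi, and 36.6 and 38.3 in Siglec-5/THP-1. Recognition of bacteria was represented by 18 measured genes, of which 3 were called for NTHi, the peptidoglycan sensor NOD2 and the adaptors IRAK2 and TRAF6, and 5 were called as higher in Siglec-14/THP-1. TRAF6 had 126 and 121.5 with and without NTHi in Siglec-14/THP-1, a ratio of 1.03, and 119 and 45.5 in Siglec-5/THP-1, a ratio of 2.62, so that its call (limma adjusted p = 0.0446) rests on the low signal of Siglec-5,NTHi[-]. TLR2, a receptor of bacterial lipoproteins, had 210 and 133.5 with and without NTHi in Siglec-14/THP-1, and 215 and 146 in Siglec-5/THP-1.

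The transcripts of CXCL1, CXCL2 and CXCL8 carry AU-rich elements, and 11 genes were measured for proteins that bind such transcripts or for enzymes and adaptors that regulate their stability. Of these limma called 0 for NTHi, with 2 at an unadjusted p under 0.05 (0.99% of all genes were called), and 3 were called as higher in Siglec-14/THP-1 (6.24% of all genes). DUSP1, a phosphatase of the p38 kinase, had 294.8 and 198 in Siglec-14/THP-1 with and without NTHi, and 31.5 and 27.7 in Siglec-5/THP-1. ZFP36L1, which promotes decay of AU-rich transcripts, had 472 and 495 against 113 and 101 in the same order. ZFP36 (tristetraprolin), of the same family, had 238 and 198 in Siglec-14/THP-1 and 152 and 111 in Siglec-5/THP-1. The other 8 genes of this list were not called between the lines.

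Of 8 measured genes for other factors that recruit or sustain neutrophils, 3 were called as higher with NTHi (IL1B, TNF and C3), against 0.99% of all genes, and 5 as higher in Siglec-14/THP-1 (these 3, IL1A and LIF), against 6.24%. C3, the source of the fragment C3a, had 1823 and 1090 in stimulated and nonstimulated Siglec-14/THP-1, and 523 and 86.9 in Siglec-5/THP-1. TNF had 57.9 and 21.5 in Siglec-14/THP-1, and 25.9 in Siglec-5,NTHi[+], with the signal of Siglec-5,NTHi[-] below the floor. The calls of TNF rest in part on that signal. Its ratio with NTHi was 2.70 in Siglec-14/THP-1 and at least 1.62 in Siglec-5/THP-1. IL1A was below the floor in Siglec-5,NTHi[-] as well. LIF, an IL-6 family cytokine, had 50.9 and 28.3 in Siglec-14/THP-1 and was below the floor in Siglec-5/THP-1, so that it entered the fit through the Siglec-14/THP-1 arrays only. Its ratio between the lines was at least 3.17 with NTHi and at least 1.77 without. CSF3, the neutrophil growth factor G-CSF, was below the floor on all arrays.

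**Figure D4:**
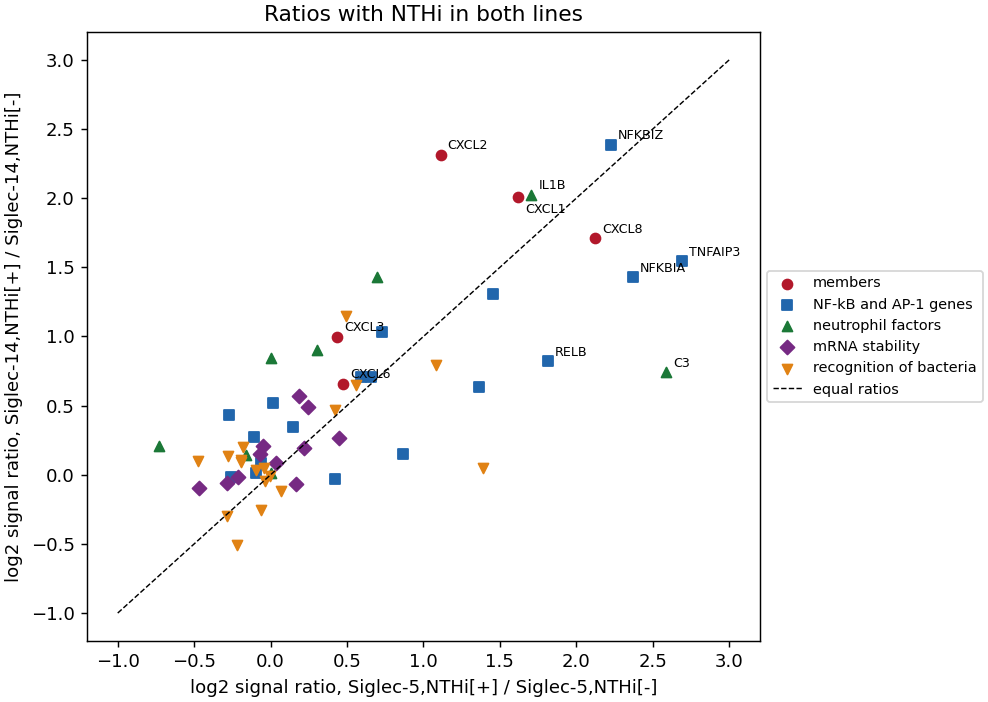
Each point is 1 measured gene of the members and 4 gene lists, with its log2 signal ratio with NTHi in Siglec-5/THP-1 (x axis) and in Siglec-14/THP-1 (y axis), signals below the floor being raised to it. Red circles are the members, and the dashed line marks equal ratios. CXCL2 lies above the line and CXCL8, NFKBIA, TNFAIP3, RELB and C3 below it.

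The NF-κB letters found before the members were also looked up before other genes. Of 50 measured genes with GGAATTTCC in the 250 bases before the start, 11 (22.0%) rose with NTHi in the limma fit, against 111 (0.992%) of 11195 measured genes with a promoter in the table. Without the members they were 8 of 45 (17.8%), namely TNFRSF9, REL, NFKBIZ, CXCL10, NFKB1, MAP3K8, NFKBIA and ICAM1. MAP3K8, the kinase TPL-2, had 110 and 61.0 in Siglec-14/THP-1 with and without NTHi, and 142 and 86.2 in Siglec-5/THP-1. The median NTHi term of the 45 genes was 0.09 on the log2 scale. No test was made of these shares. CXCL3 and CXCL6 carry the same letters without a call for NTHi, and CXCL5, which carries them too, was not measured.

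The labels could be checked in part. No probe set was listed for SIGLEC14 alone, and that of SIGLEC5 was near the floor, with 19.5 in Siglec-14,NTHi[+], 21.3 in Siglec-14,NTHi[-], 21.6 in Siglec-5,NTHi[+] and 4.13 in Siglec-5,NTHi[-], so the arrays do not tell the lines apart by these genes. Of 10 monocyte markers 6 were measured, with lysozyme (LYZ) between 3036 and 3430 on all arrays, and CD14 below the floor on all of them. ITGAM and TYROBP were higher in Siglec-14/THP-1, by 0.81 and 0.85 on the log2 scale in the limma fit. The summed signal of the monocyte markers was 3900 in Siglec-14,NTHi[+], 3920 in Siglec-14,NTHi[-], 3642 in Siglec-5,NTHi[+] and 3931 in Siglec-5,NTHi[-], most of it from LYZ. Without LYZ the other 5 markers summed to 859, 731, 455 and 486.5 in the same order of arrays, higher in Siglec-14/THP-1 as the chemokines were, and their part in the chemokine difference was not tested. Neutrophil markers (5 of 9 measured) summed to between 396 and 442 on the 4 arrays. MMP8 alone of them was called as higher in Siglec-14/THP-1, and it was measured through the Siglec-14/THP-1 arrays only, with 36.3 and 32.7 there and signals below the floor in Siglec-5/THP-1. These sums are read between arrays and not between cell types, since signals of different probe sets are not compared. Some markers of other cell types, such as PAX5 (B cells) and EPCAM (epithelium), were above the floor on all 4 arrays. Markers of T cells (3 of 5 measured), B cells (3 of 5), epithelium (2 of 5), fibroblasts (2 of 5) and erythroid cells (2 of 5) had summed signals of at most 305 on any array. Of these COL1A1, with 257 and 266 in Siglec-14/THP-1 and 132 and 141 in Siglec-5/THP-1, was higher in Siglec-14/THP-1, as was EPOR, and their part in the chemokine difference was not tested. The sum of all signals ran from 12735500 to 14047100.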

How the data were processed

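RNA of 4 cell samples was hybridized to 1 array each. The deposited values are signal intensities on a linear scale, which the authors quantified with GeneChip Operating Software (GCOS, version not given in the sources used here) and standardized on the summed signal of all probes, although the sums of the 4 arrays differ. They were used without further scaling. Of 54675 probe sets, 62 controls were left out of the fit, and 41091 of the others are annotated to 1 gene. Probe sets of several genes (1801) or none (11777) name no gene here. A gene is represented by its probe set with the highest mean signal. The fit used limma 3.58.1 in R 4.3.3, with log2 signals of probe sets that reached the median of all signals on 1 array or more, eBayes with an intensity trend, and Benjamini-Hochberg adjusted p-values under 0.05 as calls. The fit was also run on simulated data with normal noise of its own fitted variance and no line effect. Such data cannot test whether its assumptions hold for these arrays. Signals below the floor entered the fit as deposited and were raised to the floor only in folds. Prior degrees of freedom were infinite, so standard errors come from the trend. With 1 array per condition, the number of arrays limits the precision. The residual of the additive fit is the difference in NTHi response between the lines. The p-values therefore measure neither technical nor biological spread of replicates.

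Signals of like brightness are the 200 probe sets nearest in mean log2 signal, none of whose signals is below the floor. Alternatives were other scalings (same median, mean after trimming 2% at each end, quantile), floors at the 25th percentile (4.09) and the 75th percentile (105), a pseudocount of 16, thresholds of 2-fold and 4-fold, another probe set, no trend and 1 factor left out. The text names all members and receptors, list genes at least 3-fold apart in a pair of arrays, and the 3 genes nearest in pattern, together with other list genes, genes with the NF-κB letters and chromosomal neighbours, chosen after their values were seen. The members and gene lists were chosen with earlier results of these data known. Promoters are those of RefSeq on GRCh38.p14, aligned with Biopython 1.88. Python 3.11.15, numpy 2.4.6, pandas 2.3.3 and matplotlib 3.10.9 did the rest. Measurements on serum were not used.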

Additional observations from a re-analysis of the deposited data

Results flagged for a closer look

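In 9 of the genes named here the signal was higher with NTHi in one line and lower in the other. Each rests on 1 array per condition, and the difference was not tested. CXCR2 had a log2 ratio of 0.50 with NTHi in Siglec-14/THP-1 and -0.50 in Siglec-5/THP-1, a difference of 1.0, where the SD of that difference over 199 probe sets of like signal was 0.38. CTSG, the neutrophil protease cathepsin G, differed by 0.57 (SD 0.16), and RGS2, a regulator of G protein signalling, by 0.42 (SD 0.26). The myeloid genes ITGAM and TYROBP differed by 0.53 (SD 0.25) and 0.33 (SD 0.24), and MTHFD2L, beside CXCL2, by 0.47 (SD 0.20). ATF3 differed by 0.15 (SD 0.40) and ZFP36L1 by -0.23 (SD 0.28), both smaller than their SD. None of these differences was centred on the other genes. Over all measured genes the median log2 ratio with NTHi was 0.08 in Siglec-14/THP-1 and -0.11 in Siglec-5/THP-1. The SDs alone therefore do not sort these genes. SIGLEC5, with its Siglec-5,NTHi[-] signal raised to the floor, differed by -0.56. The SD of 0.35 beside it is over 100 probe sets that are all brighter in mean log2 signal. It is therefore not a spread at like signal and does not show how large this difference is.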

How the results depend on the processing

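No member's term in the shared fit changed direction under the alternatives in which it could be fitted, which leave out CXCL3 with the floor at the 75th percentile and CXCL2 on its dimmest probe set. For NTHi, the 3 members called became 0 without the intensity trend and 0 with cell line left out. Between the lines, the 4 members called became 0 without the trend. CXCL2 also lost its call between the lines with the floor at the 75th percentile (adjusted p = 0.101) and with NTHi left out (adjusted p = 0.097). Of members at least 3-fold apart, the 3 between the stimulated lines became 1 with a pseudocount of 16, 5 at a threshold of 2-fold and 0 at 4-fold. The 1 between the nonstimulated lines became 3 at 2-fold. The 2 with NTHi in Siglec-5/THP-1 became 1 with the floor at the 75th percentile, 1 with the pseudocount and 1 at 4-fold. The remaining 44 counts of members stayed within 1.5 times, although single members crossed 3-fold in some, such as CXCL8 with NTHi in Siglec-14/THP-1 after quantile normalization. The cause was not tested, except that thresholds and floors change the counts by construction.

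Over all genes, 138 were higher and 41 lower with NTHi as deposited, against 296 and 67 with equal medians, 517 and 239 with equal trimmed means, 228 and 103 after quantile normalization, 74 and 16 on the dimmest probe sets, and 0 without the trend or with cell line left out (749 and 289 at an unadjusted p under 0.05). Between the lines, 869 were higher and 690 lower, against 1032 and 2203, 1881 and 1809, 1539 and 1575, and 454 and 402 in that order, and 0 without the trend (1659 at an unadjusted p under 0.05). The additive fit compares NTHi within each line, and leaving out cell line removes that pairing. With 1 array per condition, no array was left out. CXCL2, CXCL3 and CXCL5 are limited by signals near or below the floor.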

Other observations

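Of 11 measured genes for enzymes that can trim or degrade chemokines, limma called 1 as higher with NTHi (0.99% of all genes), and 8 as higher and 1 as lower in Siglec-14/THP-1 (6.24% of all genes were higher). Of the 8, MMP1, MMP8 and DPP4 were below the floor on both Siglec-5/THP-1 arrays and entered the fit through the Siglec-14/THP-1 arrays only. MMP9, a gelatinase that cleaves several CXC chemokines, had 2304 and 1282 in Siglec-14/THP-1 with and without NTHi, and 268 and 194 in Siglec-5/THP-1. MMP1, a collagenase, had 186 and 190.2 in Siglec-14/THP-1 and was below the floor in Siglec-5/THP-1, at least 11.6-fold higher with NTHi and at least 11.9-fold higher without. CTSG was the one lower in Siglec-14/THP-1, with 508 and 403 there and 1112 and 1311 in Siglec-5/THP-1. Neutrophil elastase (ELANE) had signals between 7512 and 8554 on all 4 arrays.

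Of 13 measured genes for signalling below CXCR1 and CXCR2, 1 (RGS1) was called as higher with NTHi, against 0.99% of all genes. RGS1 and RGS2 were the 2 called as higher in Siglec-14/THP-1, against 6.24% of all genes. Both are regulators that shorten signalling by G protein-coupled receptors. RGS1 had 825 and 515 in Siglec-14/THP-1 with and without NTHi and was below the floor in Siglec-5/THP-1, at least 51.5-fold higher with NTHi and at least 32.1-fold higher without. Its NTHi ratio was 1.60 in Siglec-14/THP-1, and the call for NTHi rests in part on Siglec-5/THP-1 signals below the floor. RGS2 had 2291 and 2143 in Siglec-14/THP-1, and 194 and 243 in Siglec-5/THP-1.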
